A study of Mus musculus with 12 samples.

Results

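miR-223 was followed through 4 stages of granulopoiesis, the making of granulocytes in the bone marrow, in whole cell, cytoplasmic and nuclear RNA. It is 1 of 270 assays that could be named among the 593 numbered assays of the deposited table, and its row was chosen because its cytoplasmic and nuclear cycle thresholds equal those that the study printed for miR-223. No other row carried those values, and the match by whole cell differences led to the same row. The samples came from the bone marrow of C57BL/6 mice, an inbred strain, and the labels name no mutant allele and no treatment for any group. LSK cells lack the markers of mature lineages and express Sca1 and cKit on their surface. They hold the stem cells together with early progenitors, and so are not a pure stem cell group. The next 3 stages, in order, are promyelocytes, then myelocytes, then granulocytes. All were purified by cell sorting, and nuclei were separated from cytoplasm with a kit before the RNA was extracted. The animals' age and how many were pooled for a sample are not given in the labels.

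Each stage and fraction was measured in 1 sample, from 100 ng of RNA per the labels, so that there are 12 values of miR-223 and no replicate of any. Every difference below is a difference between single samples. A test can only take the stages as replicates of a fraction, or the fractions as replicates of a stage, which they are not, and the smallest p of an exact permutation test is then 0.125 with 4 pairs and 0.25 with 3. The measurement was TLDA RT-qPCR, in which a card of small wells holds 1 assay per well. The cycle threshold (CT) is the cycle at which the product of a well crosses a fixed line. The more template a sample holds the lower is its CT, and if the product doubles in each cycle, 1 cycle is a 2-fold difference. Wells in which no product was seen are listed at 40, and the study took only a CT under 30 as reliable. All 12 CT values of miR-223 lay under 30. From 199 to 294 of the 593 assays were under 40 in a sample.

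miRNAs are short RNAs that guide an Argonaute protein to messenger RNAs, mainly through the bases at positions 2 to 8, the seed, and so lower the output of those messengers. They are cut from a hairpin by Drosha in the nucleus and by Dicer in the cytoplasm. miR-223 is known as a miRNA of the myeloid lineage. Its gene is driven by the myeloid transcription factors PU.1 and C/EBP alpha, and its targets include the transcription factor Mef2c, which favours the growth of myeloid progenitors. Mice that lack it make too many granulocytes, which are also overactive.

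The sequences are shown because the 3p arm carries the activity that is usually meant by the name miR-223. They are those of RefSeq for mouse build GRCm38.p6. The table of CT values names neither an arm nor a build, and the rodent assay of this name is taken to read the 3p arm. The hairpin lies at chrX:96242817-96242926 on the plus strand. In gene order its neighbours are the long non-coding gene F630028O10Rik on one side and Vsig4, which encodes a complement receptor of macrophages, on the other. The 5p arm lies at chrX:96242842-96242864 and the 3p arm at chrX:96242884-96242905. Capitals mark the seed of each arm.
miR-223-3p: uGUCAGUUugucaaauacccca
miR-223-5p: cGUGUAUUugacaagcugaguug
The whole hairpin of 110 bases follows, with both arms in capitals, the 5p arm first.
mir-223 hairpin: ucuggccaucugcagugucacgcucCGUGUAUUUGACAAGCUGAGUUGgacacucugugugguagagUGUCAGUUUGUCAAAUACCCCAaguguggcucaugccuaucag
Among 1679 mature mouse miRNA names in the RefSeq table, 1 carried the seed of miR-223-3p, which is miR-223-3p itself.

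The CT of miR-223 fell with each step of maturation in all 3 kinds of RNA. Whole cell RNA gave 23.98 for LSK, 19.48 for promyelocytes, 17.33 for myelocytes and 16.43 for granulocytes. Cytoplasmic RNA gave 21.79, 20.35, 17.56 and 16.83 in the same order. Nuclear RNA gave 26.38, 23.75, 22.29 and 20.35. Each fraction thus ran from its highest CT in LSK to its lowest in granulocytes, with ranges of 7.54 cycles in whole cell, 4.96 in cytoplasmic and 6.03 in nuclear RNA. In samples of mixed cells, a change in the share of cells that hold miR-223 and a change in the amount per cell cannot be told apart.

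**Figure D1:**
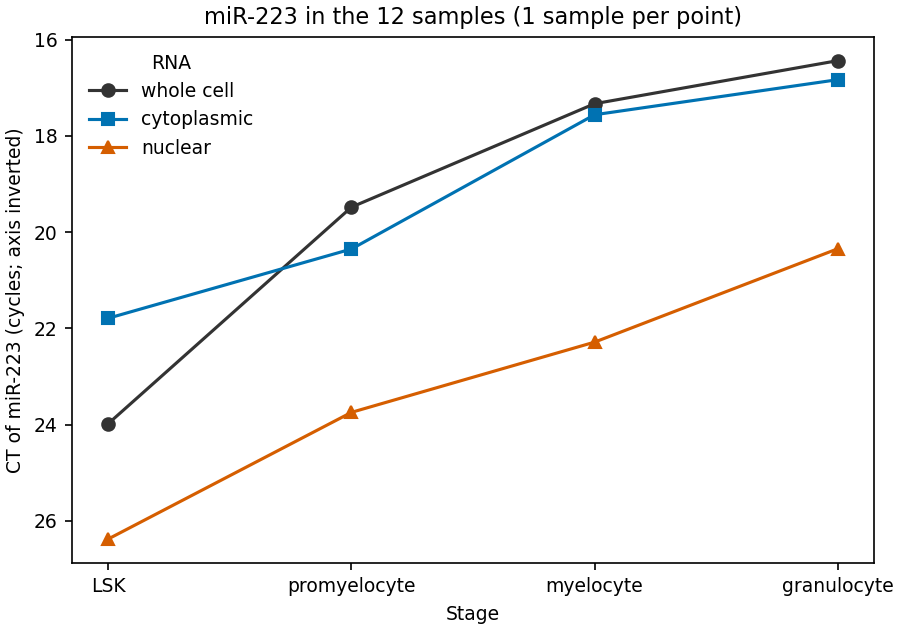
CT of miR-223 (cycles, axis inverted so that more template is higher) against stage, with 1 line for each kind of RNA and 1 sample per point. All 3 lines climb from LSK to granulocytes, and the whole cell line starts at 23.98, below the cytoplasmic line at 21.79, and ends above it, at 16.43 against 16.83.

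Set in order over all 12 samples, the lowest CT was that of whole cell granulocytes and the highest that of nuclear LSK. Neighbours in that order were from 0.004 to 2.40 cycles apart. The closest were nuclear granulocytes and cytoplasmic promyelocytes, both at 20.35 after rounding. Whole cell and cytoplasmic RNA of granulocytes and of myelocytes filled the first 4 places, with 1.92 cycles to the next sample, whole cell promyelocytes. Without replicates no neighbours in the order can be called different.

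The LSK samples stood apart from the rest in 1 respect that touches every rise from LSK. In LSK the whole cell CT of miR-223 was 2.19 cycles higher than the cytoplasmic CT, whereas it was 0.87 lower in promyelocytes, 0.23 lower in myelocytes and 0.40 lower in granulocytes. Other assays moved the same way. Over the named assays that were under 30 in both samples, the median of whole cell minus cytoplasmic CT was 1.32 cycles in LSK (SD 0.57 over 83 assays). In the later stages it was -0.60, -0.12 and -0.48 (SD 0.60 to 0.64 over 84 to 102 assays). These SDs are across assays, which are not replicates. miR-223 lay 0.87 cycles above that median in LSK, and 4 of the 83 assays had a larger difference. Of 19 assays with a CT under 25 in both LSK samples, miR-223 had the largest difference. In the other stages it lay within 0.27 cycles of the median. With all 3 CTs under 30, the whole cell CT lay between the cytoplasmic and the nuclear CT in 39 of 42 assays in LSK, miR-223 among them, while later counts were 0 of 37, 13 of 37 and 7 of 57 from the promyelocyte stage on. Which of the LSK samples differs from the others cannot be told from 1 sample of each.

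**Figure D2:**
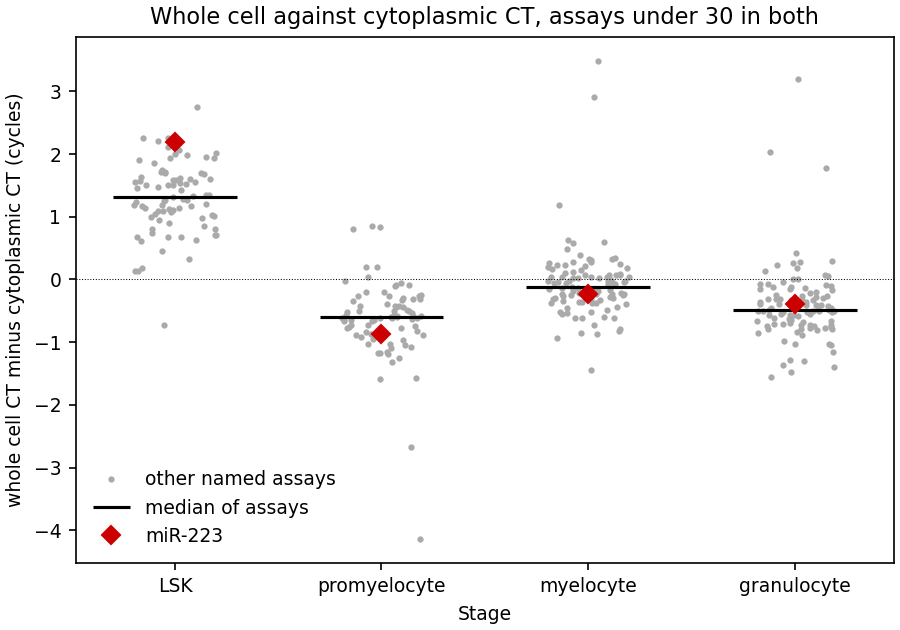
Whole cell CT minus cytoplasmic CT (cycles) at each stage for named assays under 30 in both samples (grey points), their median (line) and miR-223 (red diamond). In LSK the median is 1.32 and miR-223 is at 2.19, and in the other stages the medians lie between -0.60 and -0.12 with miR-223 close to them.

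The first question of the design is how far miR-223 changed at each step. In whole cell RNA the CT differences were scaled by the average over the last 3 assays in the table. The study's methods name no scaling assays for this table, and these 3 were inferred, since their average gives the constants by which its printed whole cell values differ from CT differences once a common factor of 1.71 is taken out. The log2 values here do not carry that factor and so are not on the printed scale. The cytoplasmic and nuclear CT were compared without scaling. In whole cell RNA miR-223 rose 19.0-fold from LSK to promyelocytes, 4.25 on the log2 scale, and 4.47-fold from promyelocytes to myelocytes, 2.16 on that scale. From myelocytes to granulocytes its log2 difference was 0.46, under the 2-fold limit. Of the named assays under 30 in either stage, 33.7% rose by 2-fold or more in the first step (35 of 104), 42% in the second (47 of 112) and 10.8% in the third (13 of 120). The median log2 differences were 0.43, 0.75 and 0.07. By size of rise miR-223 held place 3 of 104 in the first step, place 18 of 112 in the second and place 39 of 120 in the third. An assay enters this count through the stage where it is higher, so the counts are a background for miR-223 and not a finding about the assays.

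Cytoplasmic miR-223 rose 2.71-fold in the first step, 1.44 on the log2 scale, and 6.92-fold in the second, 2.79 on that scale. In the third step its log2 difference was 0.73. Without scaling, the median assay moved the other way in the first step. In that step 8.11% of the named assays rose by 2-fold or more (9 of 111), and the median log2 difference was -1.26. From promyelocytes to myelocytes the share was 54.5% (60 of 110) with a median of 1.18, and from myelocytes to granulocytes it was 11% (12 of 109) with a median of 0.08. The places of miR-223 were 7 of 111, 16 of 110 and 18 of 109. These values depend on the scaling. The last 3 assays are limited as a scale for a fraction. Their own split between nucleus and cytoplasm differed between stages, as given with the ratios below. With the last 3 assays as the scale, the cytoplasmic log2 differences of miR-223 in the 3 steps were 3.29, 1.12 and -0.86, and the median of the first step was 0.59, with 35 of 111 assays that rose. With the mean CT of the named assays they were 2.61, 1.74 and 0.68, and that median was -0.09.

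In unscaled nuclear RNA miR-223 passed 2-fold in every step. It rose 6.20-fold from LSK to promyelocytes, 2.75-fold from promyelocytes to myelocytes and 3.84-fold from myelocytes to granulocytes, which is 2.63, 1.46 and 1.94 on the log2 scale. The shares of named assays that rose were 19.6% (10 of 51), 29.8% (14 of 47) and 78.9% (45 of 57), with median log2 differences of 0.20, -0.52 and 1.35. Scaled by the last 3 assays, the middle step of miR-223 was 7.31-fold, with 22 of 47 assays that rose. Without scaling the rise into granulocytes was thus shared by most nuclear assays. Scaled by the mean CT of the named assays, 8.77% of them rose (5 of 57), and the last nuclear step of miR-223 was 0.77 on the log2 scale, under the 2-fold limit.

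The named assays with the largest rise in a step began that step at a CT over 30 or in an empty well, except for whole cell miR-139-5p. In whole cell RNA they were miR-801 in the first step, from a CT of 30.80 to 23.30, miR-139-5p in the second and miR-466d-3p, listed at 40 in myelocytes, in the third. In cytoplasmic RNA they were miR-574-3p and miR-139-3p, each listed at 40 at the start, and miR-467a, from 31.69 to 28.07. In nuclear RNA they were miR-696, listed at 40 in LSK, miR-139-5p, from 31.10 to 26.79, and miR-29c, from 30.70 to 27.91.

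**Figure D3:**
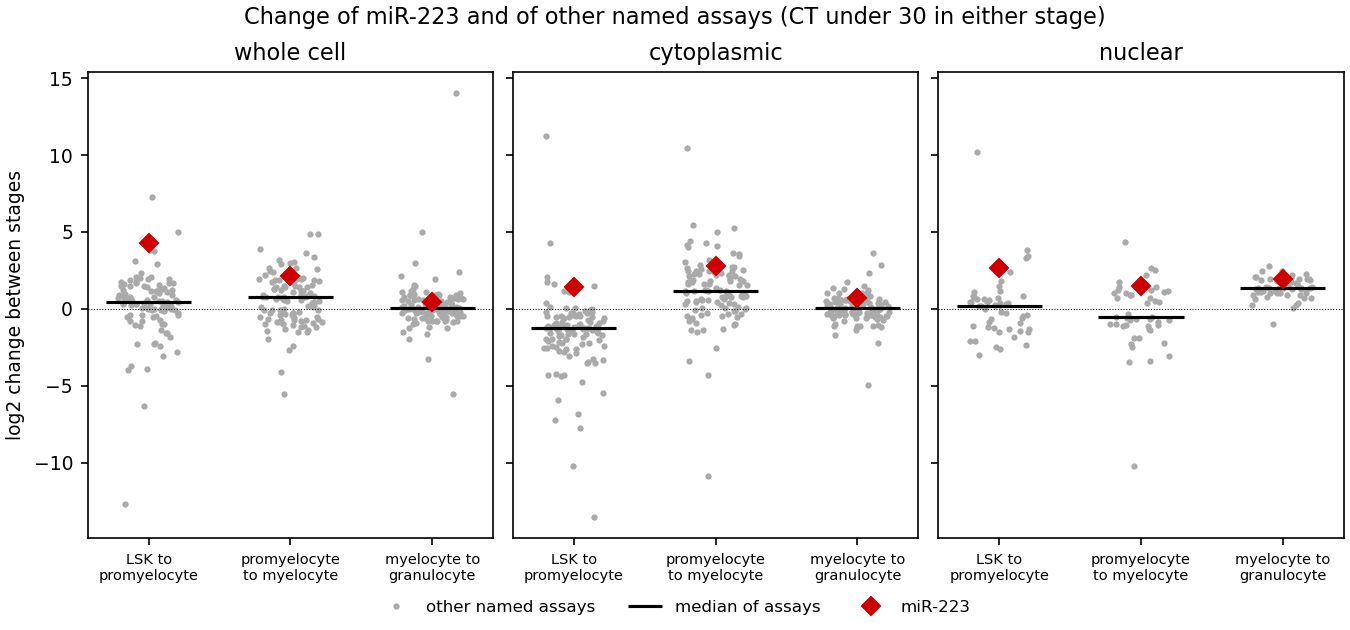
Log2 change of miR-223 (red diamonds) and of the other named assays with a CT under 30 in either stage (grey points) for each step, in whole cell, cytoplasmic and nuclear RNA, with the median as a line. miR-223 is above the median in all 9 steps, and its height over the median falls from the first to the third step in each kind of RNA.

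A further view is the distance of miR-223 from other assays of the same sample, which is also a scaling by a constant of each sample. There were 27 named assays, miR-223 among them, that stayed under 30 in all 12 samples. They gave a mean CT for each sample. Whole cell miR-223 lay below that mean by 0.59 cycles in LSK, and by 4.17, 5.92 and 6.25 cycles in the stages that follow. The cytoplasmic distances were 1.47, 3.93, 5.60 and 6.19 cycles, and the nuclear distances were 0.39, 2.98, 4.40 and 5.15 cycles. On this scale each kind of RNA had its largest gain in the first step, of 3.58, 2.46 and 2.58 cycles. The second gave 1.75, 1.66 and 1.42 cycles and the last 0.33, 0.59 and 0.75 cycles. The gains of the 3 fractions differed most in the first step, the one that rests on the LSK samples. The first step did not hold the largest gain with every scaling. Unscaled cytoplasmic miR-223 gained 1.44 and then 2.79 on the log2 scale. Nuclear miR-223 scaled by the last 3 assays gained 2.39 and then 2.87.

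From LSK to granulocytes miR-223 rose 117-fold in whole cell, 31.1-fold in cytoplasmic and 65.4-fold in nuclear RNA, which is 6.87, 4.96 and 6.03 on the log2 scale. The size and the order of these folds depend on the scaling. Scaled by the last 3 assays throughout, the cytoplasmic rise was 11.7-fold and the nuclear one 145-fold, and with the mean CT of the named assays the rises were 65.5-fold, 32.6-fold and 27.3-fold. Without scaling the whole cell rise was 187-fold. Over the same span 55.6% of the named assays in whole cell (69 of 124), 33.9% in cytoplasmic (42 of 124) and 58.7% in nuclear RNA (37 of 63) rose by 2-fold or more. The last 3 assays as the scale gave a cytoplasmic count of 14 of 124 and a nuclear one of 51 of 63, and with the mean CT the nuclear count was 22 of 63. The assays with larger whole cell rises were miR-135a, miR-139-3p and miR-744*, each listed at 40 in LSK, so that the size of their change rests on the value given to an empty well. Among assays with a CT under 30 at both ends, miR-223 had the largest whole cell rise of 77, the largest nuclear rise of 39 and the cytoplasmic rise at place 2 of 85, after miR-139-5p at 5.39 on the log2 scale. miR-139-5p was also close in whole cell RNA, at 6.50. The next nuclear assay measured in this way was miR-142-3p at 3.77. Among all assays under 30 in either stage miR-223 held place 4 of 124 in whole cell, 6 of 124 in cytoplasmic and 4 of 63 in nuclear RNA. The nuclear rises ahead of it were those of miR-135b, listed at 40 in LSK, of miR-139-5p, 7.61 on the log2 scale from a CT of 32.14 to 24.53, and of miR-149, 6.10 on that scale.

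Without the LSK samples, miR-223 rose from promyelocytes to granulocytes 6.14-fold in whole cell, 11.5-fold in cytoplasmic and 10.6-fold in nuclear RNA. The background over this span was 52.8%, 58.2% and 58.1% of the named assays, and the places of miR-223 were 21 of 123, 16 of 110 and 9 of 62. Among assays under 30 at both ends of this span the places were 3 of 90, 5 of 80 and 1 of 35. With the last 3 assays as the scale, the cytoplasmic rise over this span was 1.19-fold, 0.25 on the log2 scale, and 8.18% of the named assays rose by 2-fold or more. The nuclear rise was 27.6-fold on that scale, where 83.9% rose, and 4.98-fold with the mean CT of the named assays, where 45.2% rose. The mean CT gave 4.33-fold in whole cell RNA, where 39.8% rose, and 5.33-fold in cytoplasmic RNA, where 36.4% rose. The share of the whole log2 rise that fell into that first step was 61.9% in whole cell, 29.0% in cytoplasmic and 43.6% in nuclear RNA. Over the scalings tried, the whole cell share was 59.6% to 64.9%, the cytoplasmic share 29.0% to 92.8% and the nuclear share 33.3% to 51.4%, so the whole cell share varied least.

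Higher at each of the 9 steps, 3 in each kind of RNA, was a pattern of miR-223 alone among the 101 named assays that were under 40 in all samples and under 30 in at least 1. Here higher means any difference above 0, not a 2-fold one. The assays that came next, with 8 of 9, were miR-15b, miR-16, miR-139-5p, miR-192, miR-195 and miR-340-5p, and the median assay was higher at 5 of 9. Without any scaling miR-223 was again the 1 assay with all 9. With the mean CT of the named assays it shared this with miR-16 and miR-139-5p. With the last 3 assays as the scale throughout, miR-223 was higher at 8 of 9 and miR-195 was the 1 assay with all 9. With LSK left out, 23 of the 101 assays were higher at all 6 remaining steps. The pattern was looked at after the values of miR-223 were seen.

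The place of miR-223 among all assays of a sample moved in the same order. Counted from the lowest CT, whole cell miR-223 was at place 14 of 593 in LSK, 2 in promyelocytes and 1 in both myelocytes and granulocytes. Its cytoplasmic places were 7, 2, 1 and 1, and its nuclear places 19, 8, 7 and 2. CTs of different assays also differ by how well each assay amplifies, so a place in this order is not a place by number of molecules. Of the assays ahead of it in promyelocytes and later stages, only miR-709 could be named, in nuclear promyelocytes and myelocytes, where it was at 21.26 and 22.23. One unnamed assay ahead of miR-223 in nuclear myelocytes, at 15.85, was listed at 40 in all 11 other samples.

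The named assays nearest to miR-223 changed from stage to stage. In whole cell LSK it lay between miR-92a at 23.49 and miR-24 at 24.06. In cytoplasmic LSK miR-222 was just ahead, at 21.77, and in nuclear LSK miR-24 was just ahead at 26.25 and miR-20a just behind at 26.80. In promyelocytes the nearest named assay was miR-19b, of a cluster of miRNAs that promotes cell growth, at 20.44 in whole cell and 21.19 in cytoplasmic RNA, which is 0.96 and 0.84 cycles behind. In myelocytes the nearest named assay was miR-16, which is known to restrain the cell cycle, 3.08 cycles behind in whole cell and 3.09 in cytoplasmic RNA. In granulocytes miR-16 was 3.21 cycles behind in both. Unnamed assays were nearer, at 1.23 cycles behind in whole cell and 0.54 in cytoplasmic myelocytes. In granulocytes they were 1.48 and 1.67 cycles behind.

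The second question is how miR-223 divides between nucleus and cytoplasm. The ratio used here is 2 raised to cytoplasmic minus nuclear CT and divided by 3, as in the ratios that the study printed. The labels give equal RNA input for all samples, while the study describes its fraction plots as based on cell equivalents, so the absolute size of the ratio is uncertain and the divisor is taken over as it stands. The nuclear CT of miR-223 was higher than the cytoplasmic CT by 4.59 cycles in LSK and then, stage by stage, by 3.40, 4.73 and 3.52 cycles. The ratios were 0.0138, 0.0317, 0.0126 and 0.0291. With the stages taken as 4 pairs, nuclear CT exceeded cytoplasmic CT in 4 of 4 by a mean of 4.06 cycles (SD 0.70), and a two-sided exact permutation test by sign flips gave p = 0.125, the smallest that 4 pairs allow (adjusted p = 0.188 over the 3 pairs of fractions). The ratios were thus higher in promyelocytes and granulocytes than in LSK and myelocytes, with no steady course through maturation.

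The ratio of miR-223 moved with that of the other assays. Over the named assays with a nuclear CT below 30, the median ratios from LSK to granulocytes were 0.0213, 0.0534, 0.0266 and 0.0568, which again sets LSK and myelocytes below promyelocytes and granulocytes. As a share of that median, miR-223 was at 0.649, 0.592, 0.472 and 0.513. A ratio under 0.1 was found for 84.4% of these assays in LSK (38 of 45) and 72.5% in promyelocytes (29 of 40). The shares were 86.5% for myelocytes (32 of 37) and 89.5% for granulocytes (51 of 57). The ratio of miR-223 was under 0.1 in all 4, as it was for most assays with this divisor. Without the divisor the ratio of miR-223 stayed under 0.1 in all 4, at 0.0415, 0.0950, 0.0377 and 0.0874, while the share of assays under 0.1 was 15% in promyelocytes and 12.3% in granulocytes. Set against the 27 assays, the divide was nearly the same in each stage. miR-223 lay further below the sample mean in cytoplasmic than in nuclear RNA by 1.08, 0.96, 1.19 and 1.04 cycles from the first to the last stage. The last 3 assays, used above as a scale, had median ratios of 3.82, 16.2, 1.80 and 0.610 from LSK to granulocytes.

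Among the named assays with a nuclear CT under 30, miR-223 was on the low side by ratio within its stage. Counted from the lowest ratio its places were 7 of 45, 4 of 40, 2 of 37 and 5 of 57 from LSK to granulocytes. The limit leaves out assays of low nuclear level, and with them assays of low ratio whose cytoplasmic CT is higher. With a nuclear CT limit of 32 the places were 12 of 67, 13 of 75, 7 of 64 and 8 of 99. Under the limit of 30, the assay below it in myelocytes was miR-720, a tRNA fragment that was later removed from the list of miRNAs, at 0.00725. miR-805, miR-378 and miR-106b were below it in promyelocytes, and miR-720, miR-652, miR-19a and miR-15b* in granulocytes. In LSK those below it were miR-150, miR-126-3p, miR-93, miR-146a, miR-720 and miR-374. These assays were named here for being below miR-223, after their values were seen.

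The level of an assay enters this comparison. Across the named assays under 40 in both fractions, the least squares line of nuclear on cytoplasmic CT had a slope of 0.792 in LSK and promyelocytes, 0.784 in myelocytes and 0.880 in granulocytes, over 151 to 166 assays. A slope under 1 means that assays with a low cytoplasmic CT had the wider gap to nuclear CT. Wells near 40 cannot show a wider gap, which bears on the slope. The nuclear CT of miR-223 was 0.41, 0.89, 1.21 and 0.28 cycles below the line from LSK to granulocytes. That is less than the SD of the distances from the line, which was 1.69, 1.76, 1.73 and 1.26 cycles. Against the median ratio miR-223 was thus low in the nucleus, and against the line, which allows for its high cytoplasmic level, it was slightly high and within the spread.

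**Figure D4:**
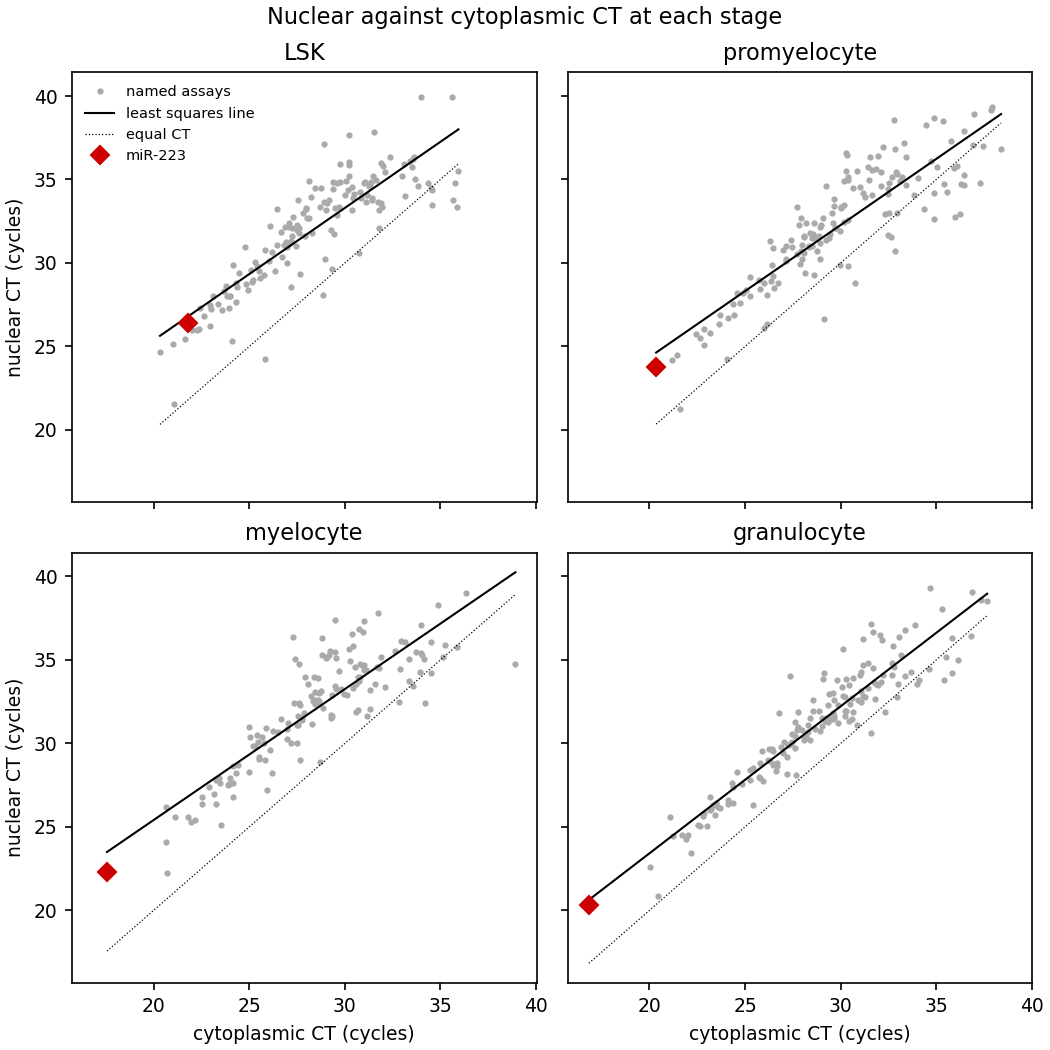
Nuclear CT against cytoplasmic CT (cycles) at each stage for the named assays under 40 in both (grey points), with the least squares line, the line of equal CT (dotted) and miR-223 (red diamond). miR-223 moves to the lower left end of the cloud in myelocytes and granulocytes and stays 0.28 to 1.21 cycles below the least squares line.

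Not all of the other miRNAs linked to the factors that drive miR-223 were measured well enough to be counted. Of the 4 other miRNAs listed for PU.1, miR-146a, miR-155 and miR-342-3p had a CT under 30 in whole cell LSK or promyelocytes, and 0 of these 3 rose by 2-fold or more in that step, beside 33.7% of all named assays. Their median log2 difference was -1.54, against 0.43 over all 104 named assays. From promyelocytes to myelocytes 2 of the 3 rose, beside 42%, with a median of 1.96, close to the 2.16 of miR-223. From myelocytes to granulocytes 0 of 3 rose, beside 13 of 120, and 3 fell by 2-fold or more, beside 8 of 120. Without scaling 2 of the 3 fell in that last step, beside 5 of 120. In cytoplasmic RNA the middle step also gave 2 of 3 that rose, beside 54.5% of all named assays. With the last 3 assays as the scale it gave 0 of 3, beside 17.3%. The whole cell CTs of miR-342-3p were 28.78, 29.66, 27.71 and 28.53. miR-146a, which dampens NF-kappa B signalling, had whole cell CTs of 25.32, 27.36, 24.43 and 25.93 from LSK to granulocytes. It was 1.34 cycles behind miR-223 in LSK and 9.50 behind in granulocytes. miR-155, a miRNA of inflammation and of lymphocytes, had CTs of 26.06, 27.36, 28.89 and 30.11, a course opposite to that of miR-223. miR-338-3p was not under 30 in any sample.

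Of the 4 other miRNAs listed for C/EBP alpha, miR-29a and miR-30c had a CT under 30 in every sample, and miR-29b in none. miR-34a was under 30 only in cytoplasmic LSK, at 29.76. miR-30c had whole cell CTs of 24.87, 25.16, 23.98 and 22.86, and miR-29a, which targets DNA methyltransferases, of 24.60, 24.41, 23.54 and 23.07. In whole cell LSK both thus lay within 1 cycle of miR-223, and in granulocytes they lay more than 6 cycles behind. In the step from LSK to promyelocytes 0 of the 2 rose by 2-fold or more in any fraction. The shares of all named assays were 33.7% in whole cell, 8.11% in cytoplasmic and 19.6% in nuclear RNA. In cytoplasmic RNA miR-34a counts as well, giving 0 of 3 that rose and 3 that fell, beside 71 of 111 that fell. Of miR-29a and miR-30c, 1 rose from promyelocytes to myelocytes in whole cell RNA, beside 42%. Cytoplasmic RNA gave 2 of 2, beside 54.5%, and nuclear RNA 0 of 2, beside 29.8%. With the mean CT the whole cell count was 0 of 2, beside 29.5%. The cytoplasmic count was 0 of 2 with either other scaling, beside 17.3% for the last 3 assays and 32.7% for the mean CT. In the last step 2 of 2 rose in nuclear RNA, beside 78.9%, and 0 of 2 elsewhere. The nuclear counts depend on the scaling too. The middle step gave 2 of 2 for the last 3 assays, beside 46.8%, and the last step 0 of 2 for the mean CT, beside 8.77%. A count of 2 is too small to be read against these shares.

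In whole cell RNA, and in unscaled cytoplasmic RNA, most of the other miRNAs named for myeloid maturation rose from promyelocytes to myelocytes. Of 9 that could be named, 8 had a CT under 30 in whole cell LSK or promyelocytes and 2 of the 8 rose by 2-fold or more, with a median log2 difference of 0.45. From promyelocytes to myelocytes 8 of 9 rose, with a median of 1.95 against 0.75 over all 112 named assays. In the third step 0 of 9 rose. The shares of all named assays that rose in whole cell RNA were 33.7%, 42% and 10.8%. Cytoplasmic RNA gave 0 of 8, 8 of 9 and 0 of 9, beside 8.11%, 54.5% and 11% of all named assays. The 8 of 9 in the middle cytoplasmic step rests on unscaled CT. Scaled by the last 3 assays it was 1 of 9, beside 17.3%, and with the mean CT 6 of 9, beside 32.7%. Nuclear RNA gave 1 of 7, 5 of 7 and 7 of 7, beside 19.6%, 29.8% and 78.9%. With the mean CT of the named assays as the scale, the nuclear counts of the middle and last steps were 5 of 7 and 0 of 7, the latter beside 8.77%. miR-142-3p is a miRNA found in most blood cells. Its whole cell CTs were 25.28, 22.94, 21.10 and 20.63. The gap to miR-223 widened from 1.30 cycles in LSK to 3.46, 3.77 and 4.19 cycles.

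The miRNAs of stem and progenitor cells had their highest summed level in LSK, where miR-223 had its lowest. Of 11 listed, 8 could be named, all 8 were under 30 in at least 1 LSK sample and 3 were in each later stage. Of all 270 named assays, 108 were in LSK and 102, 107 and 117 in the later stages. Their summed level, written as a CT, was 23.46 in whole cell LSK and from 24.91 to 25.20 in the later stages. miR-125a-5p, which is known to protect stem cells from apoptosis, had whole cell CTs of 28.76, 34.79, 35.41 and 34.12. miR-196b, encoded in a Hox cluster, had CTs of 25.85, 29.33, 31.31 and 33.23. Others of the list went another way. The whole cell CTs of miR-10b were 30.36, 31.13, 28.96 and 27.45, so that its level was highest in granulocytes, and those of let-7e were 25.91, 25.65, 25.72 and 25.69.

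Markers of other cell types were looked at in the same samples. miR-126-3p and miR-126-5p, of endothelial cells, megakaryocytes and stem cells, had a summed whole cell level of 24.00 in LSK and 26.73, 27.23 and 26.81 later. Of the lymphoid markers 2 of 4 could be named. Their summed whole cell level was 25.07 in LSK and then 27.87, 25.48 and 25.74. It was mostly miR-150, a miRNA of mature lymphocytes, except in promyelocytes, where miR-150 at 28.78 and miR-181a at 28.97 were alike. Of 3 erythroid markers 1 could be named, miR-486, which was listed at 40 in all LSK and promyelocyte samples and at 31.46 and 31.74 in whole cell myelocytes and granulocytes. The muscle markers, with 3 of 4 named, stayed above 30 in every sample. Of the epithelial markers 3 of 6 could be named, and they did not move together. miR-200c had whole cell CTs of 34.57, 31.22, 28.84 and 27.77, miR-200b of 31.78, 40, 34.24 and 30.95, and miR-429 of 33.68, 34.72, 32.57 and 33.93. The part of other cells in the values of miR-223 was not tested.

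The assays whose course was most like that of miR-223 were found among 44 with a CT under 30 in at least 10 of the 12 samples and under 40 in all. The measure was Pearson's r of CT minus the sample's mean over the 27 assays, as a description over 12 samples that share cards and stages. The 5 highest were miR-340-5p at 0.895, miR-142-3p at 0.875, miR-139-5p at 0.871, miR-93 at 0.862 and miR-195 at 0.832. The 3 lowest were miR-92a at -0.902, miR-222 at -0.927 and let-7e at -0.954. Their mature sequences are shown so that their seeds, in capitals, can be set beside that of miR-223. Names without an arm were read as the arm that the older name stood for.
miR-340-5p: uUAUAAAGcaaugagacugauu
miR-142-3p: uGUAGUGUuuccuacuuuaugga
miR-139-5p: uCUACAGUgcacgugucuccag
miR-93: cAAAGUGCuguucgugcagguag
miR-195: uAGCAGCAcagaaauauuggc
miR-92a: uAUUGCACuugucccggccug
miR-222: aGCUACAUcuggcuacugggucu
let-7e: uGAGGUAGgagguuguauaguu
None of these 8 shared a seed with miR-223 or with another of the 8. Without the 3 LSK samples, 1 of the 5 was still among the 5 highest, miR-340-5p, and 2 of the 3 were still among the lowest, miR-92a and let-7e, while r of the 5 still ran from 0.705 to 0.968. With raw CT in place of centred CT, 4 of the 5 highest stayed and r of the 3 lowest turned to 0.368, 0.153 and 0.494 over the 12 samples, whose CTs also differ between fractions. Within each fraction the raw CT of miR-222 was higher in granulocytes than in LSK. It was at 22.71 and 24.76 in whole cell RNA, at 21.77 and 24.83 in the cytoplasm, and the nuclear pair was 26.08 and 27.54. That of miR-92a was higher too, by less, while the raw CT of miR-223 was lower in each. let-7e was higher in cytoplasmic and nuclear RNA and slightly lower in whole cell RNA.

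**Figure D5:**
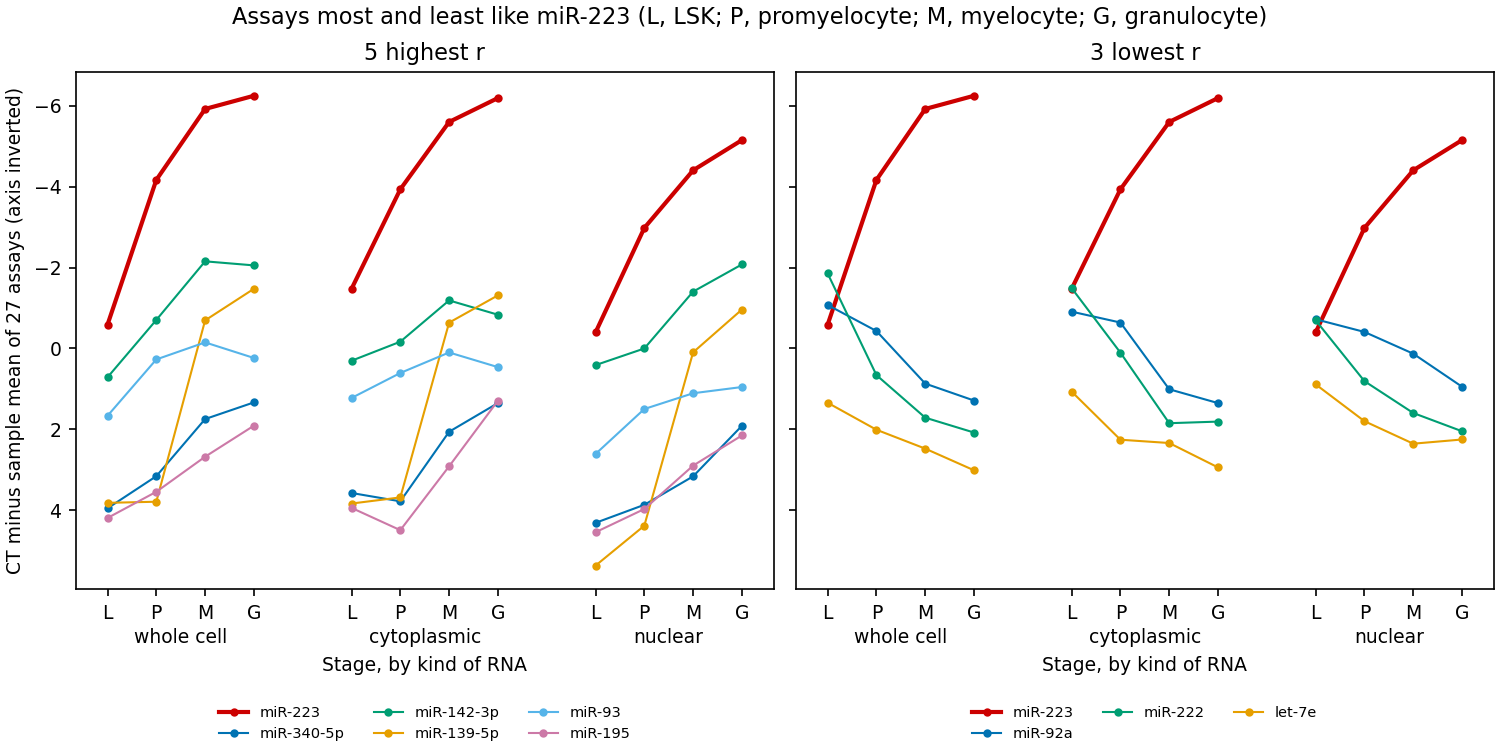
CT minus the sample's mean over 27 assays (cycles, axis inverted) in the 12 samples for miR-223 with the 5 assays of highest r (left) and the 3 of lowest r (right). miR-223 starts beside miR-222 and miR-92a in LSK, and parts from them in promyelocytes in each kind of RNA.

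The profiles differ in when they moved. miR-93, with whole cell CTs of 26.23, 23.92, 23.10 and 22.92, gained most from LSK to promyelocytes, as whole cell miR-223 did. Its cytoplasmic CTs were 24.49, 24.89, 23.26 and 23.48, so that unscaled it gained from promyelocytes to myelocytes. Unscaled cytoplasmic miR-223 also gained most in that step. miR-139-5p, which is known as a tumour suppressor in several tissues, had whole cell CTs of 28.38, 27.43, 22.56 and 21.21, and so rose mainly from promyelocytes to myelocytes, where its rise, 4.89 on the log2 scale, was the largest among the 112 named assays under 30 in either stage. miR-222, which is known to target the receptor Kit, was 1.27 cycles ahead of miR-223 in whole cell LSK and 8.32 behind it in granulocytes. In cytoplasmic LSK the pair differed by 0.02 cycles, with miR-222 ahead.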

How the data were processed

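The values are raw CT values, in cycles, of TaqMan rodent miRNA cards A and B. The authors reverse transcribed 100 ng of RNA per the labels, ran the cards on an ABI 7900HT instrument and read CT with SDS and RQ Manager software. The deposited table holds other values than counts or expression units, namely CT without normalization, with undetermined wells at 40. Its assays are numbered. Names came from unique matches to CTs printed in the supplement within 0.0005 cycles (248 of 257 entries) or to whole cell differences within 0.002, after 1 factor of 1.71 common to all entries was fitted (129 of 129 entries, 22 of the names from these alone), 270 in all, with 0 conflicts.

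Log2 changes are CT differences. Whole cell CTs were scaled by the mean CT of the last 3 assays, and cytoplasmic and nuclear CTs were not scaled. Shares count named assays under 30 in either stage, and ratios were divided by 3. With 1 sample per stage and fraction and 1 well per assay, no p-value across assays is given and the precision of a CT is unknown. Exact sign flips were run with fractions paired by stage and stages by fraction. The alternatives were other scalings, CT limits and fold limits, undetermined wells at 35, all assays, no divisor, 1.9-fold per cycle, and other measures or samples for likeness. The scripts recovered the known changes of simulated data. The named miRNAs are miR-223, the 5 most and 3 least like it, the assays beside it in each sample, the assay with the largest rise in a step and the members of the lists and marker sets. Others were named after their values were seen, namely assays ahead of miR-223 by CT, by rise or by ratio, and those higher at 8 of 9 steps. The members and lists were chosen with earlier results of these data known. Sequences and gene order are from RefSeq tables of GRCm38.p6, and all 8 assays compared with miR-223 by sequence matched an entry. Computations used Python 3.11.15, numpy 2.4.6, pandas 2.3.3 and matplotlib 3.10.9. No column of the table was left unused.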

Additional observations from a re-analysis of the deposited data

How the results depend on the processing

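A fit with the replicate number as a block has no use here, since each group holds 1 sample. Pairing fractions by stage, and stages by fraction, was added after the data were seen. Two-sided exact permutation tests by sign flips gave p = 0.125 for nuclear against cytoplasmic and against whole cell CT, p = 1 for whole cell against cytoplasmic CT, and p = 0.25 for each of the 3 steps. The smallest p that 4 and 3 pairs allow is 0.125 and 0.25. The counts of listed miRNAs under other scalings were also added then. What limits every value is the single well behind it. In whole cell RNA the log2 changes of miR-223 kept their direction with every scaling, and the change from myelocytes to granulocytes was 0.90 without scaling. Cytoplasmic changes depended most on the scaling. With the last 3 assays they were 3.29, 1.12 and -0.86 for the 3 steps and 0.25 from promyelocytes to granulocytes, and with the mean CT of named assays the first 2 were 2.61 and 1.74. Nuclear changes were 2.87 in the second step with the last 3 assays and 0.77 in the last with the mean CT. Reading a cycle as 1.9-fold shrinks every log2 change by the same factor, so this alternative could not test the changes. Which of the scalings is nearest to the amount per cell was not tested.

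Of 81 alternative shares of assays that rose, 23 left the 95% binomial interval of the share given, an interval that covers counting error only. With a fold limit of 1.5 the whole cell shares were 53.6% in the second and 28.3% in the last step, the cytoplasmic ones 64.5% and 23.9%, and the nuclear ones 33.3% in the first and 91.2% in the last. With a fold limit of 3 they were 20.2%, 28.6% and 5% in whole cell RNA, 43.6% and 3.67% in the later cytoplasmic steps, and 10.6% and 38.6% in the later nuclear steps. A CT limit of 35 gave 19.4% in the last whole cell and 19.6% in the last cytoplasmic step. With the mean CT of named assays the shares were 29.5% in the second whole cell, 32.7% in the second cytoplasmic and 8.77% in the last nuclear step. With the last 3 assays they were 31.5%, 17.3% and 1.83% in cytoplasmic RNA and 46.8% in the second nuclear step. The last whole cell step without scaling gave 28.3%.

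Without the divisor the ratios of miR-223 from LSK to granulocytes were 0.0415, 0.0950, 0.0377 and 0.0874, and the shares of assays under 0.1 from promyelocytes on were 15%, 67.6% and 12.3%. The difference of whole cell and cytoplasmic CT, less the median of the named assays under 30, 28 and 25, was 0.87, 0.97 and 1.06 in LSK, -0.27, -0.25 and -0.12 in promyelocytes, 0.086, 0.053 and -0.040 in granulocytes, and -0.11 in myelocytes with the limit of 30. Among named assays only, miR-223 was first in whole cell and cytoplasmic promyelocytes and in nuclear granulocytes (rank 1), second in nuclear promyelocytes and myelocytes (rank 2) and 12th in nuclear LSK. Of the 5 assays most like miR-223, 3 stayed among the 5 highest without the nuclear samples and 1 without the LSK samples, a setting chosen after the data were seen, as was the span from promyelocytes to granulocytes. Of the 3 least like it, 1 stayed with raw CT, where r was 0.37 for miR-92a, 0.15 for miR-222 and 0.49 for let-7e.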
